A study of Mus musculus with 24 samples.

Results

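Ketone body metabolism and transport in the mouse hippocampus was followed through 7 genes, picked by name for their roles in ketone use and monocarboxylate carriage: Oxct1, Acat1, Bdh1, Bdh2, Slc16a1, Slc16a7 and Slc16a3. They are 7 of the 21793 genes in the deposited table, and all 7 passed the filter on low values. RNA was sequenced from the hippocampi of 24 female mice, and each library came from a separate mouse. A set of mice was 3xTg-AD (3xTg), a line used to model Alzheimer's disease, and the comparison strain was B6129SF2/J (WT).

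Feeding started at 3 months of age and lasted 6 months, on 3 diets. In the control diet (C), carbohydrate made up 70%, protein 10% and long-chain triglyceride 20%, at 4.1 kcal/g. The ketogenic diet (K) was free of carbohydrate, with 10% protein and 90% long-chain triglyceride at 6.7 kcal/g. The medium-chain triglyceride diet (MCT, or M in library names) matched the control diet in carbohydrate, protein and energy, with 10% medium-chain and 10% long-chain triglyceride. There were 4 WT mice on each diet, and 3 (control), 5 (ketogenic) and 4 (MCT) 3xTg mice. The abbreviation MCT is kept for the diet, and the carrier proteins are called monocarboxylate transporters. The 3xTg line carries human APP and MAPT transgenes driven by a Thy1 cassette, on a mixed background, so strain background and transgenes cannot be told apart as sources of a genotype difference.

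The liver makes the ketone bodies acetoacetate and β-hydroxybutyrate from fatty acids when carbohydrate is scarce, and medium-chain fatty acids feed this synthesis readily. The brain takes ketone bodies from the blood through monocarboxylate transporters. In mitochondria β-hydroxybutyrate is oxidised to acetoacetate, which is activated with coenzyme A and split into acetyl-CoA for the citric acid cycle.

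Reads per library ran from 10.1 M to 25.8 M, except for 2.65 M in 3xTg_K_2. Thy1, whose promoter drives the transgenes, went against the genotype label in 3 libraries. It lay between 6952 and 8137 normalised counts in 11 WT libraries and between 20385 and 29277 in 10 3xTg libraries. The library labelled WT_M_2 had 23048, the library labelled 3xTg_C_3 had 9189 and the library labelled 3xTg_K_1 had 8112. App lay between 21293 and 25302 in those 11 WT libraries and between 29473 and 37175 in those 10 3xTg libraries. In the libraries labelled WT_M_2, 3xTg_C_3 and 3xTg_K_1 it was 30297, 23524 and 23020, also against the label. Results are given with all 24 libraries under their labels, and genotype differences also with the 21 libraries without these 3. Markers of hippocampal subfields such as Prox1, a granule cell factor, were present in every library (Prox1 at 1673 to 2738 normalised counts). In bulk tissue, fewer cells of a type and less RNA per cell cannot be told apart.

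Among the members, Oxct1 and Acat1 had the highest levels in hippocampal RNA, and Bdh2 and Slc16a3 the lowest. Levels were compared between genes as normalised counts per kilobase of the gene's merged exons, averaged over the 24 libraries. Oxct1, which activates acetoacetate and is the committed step of ketone use, stood at 1521 per kilobase (range over libraries 1375 to 1645). Acat1, the mitochondrial thiolase that splits acetoacetyl-CoA, followed at 392 (351 to 454). Slc16a1, the gene of monocarboxylate transporter 1 of brain endothelium and glia, had 212 (126 to 307). Bdh1, the mitochondrial β-hydroxybutyrate dehydrogenase, had 133 (116 to 155), and Slc16a7, the gene of the mainly neuronal monocarboxylate transporter 2, had 86.3 (73.1 to 96.8). Bdh2, a cytosolic dehydrogenase, had 5.41 (3.32 to 10.2) and Slc16a3, the gene of monocarboxylate transporter 4, which serves lactate export, had 2.66 (0.790 to 4.67). The library ranges of Slc16a1 and Bdh1 overlapped, as did those of Bdh2 and Slc16a3, and no other neighbours in this order overlapped. The order was the same when the longest transcript set the length.

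On GRCm38 (GENCODE M21), Slc16a1 lies on chromosome 3 at 104638668 to 104658462 on the plus strand, and Bdh2 on the same chromosome and strand at 135281221 to 135304426. Oxct1 lies on chromosome 15 at 4026383 to 4155344, Acat1 on chromosome 9 at 53580522 to 53610382, Bdh1 on chromosome 16 at 31422280 to 31458901, Slc16a7 on chromosome 10 at 125219270 to 125389465 and Slc16a3 on chromosome 11 at 120948480 to 120960868. Values are per gene, and no source used here says which exons or transcripts were counted. Exons of Bdh1, Oxct1 and Slc16a7 share 533, 467 and 179 bases with unlisted genes on the opposite strand (Gm15743, BC037032 and Gm47862), and no source used here says whether the counting used strand.

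**Figure D1:**
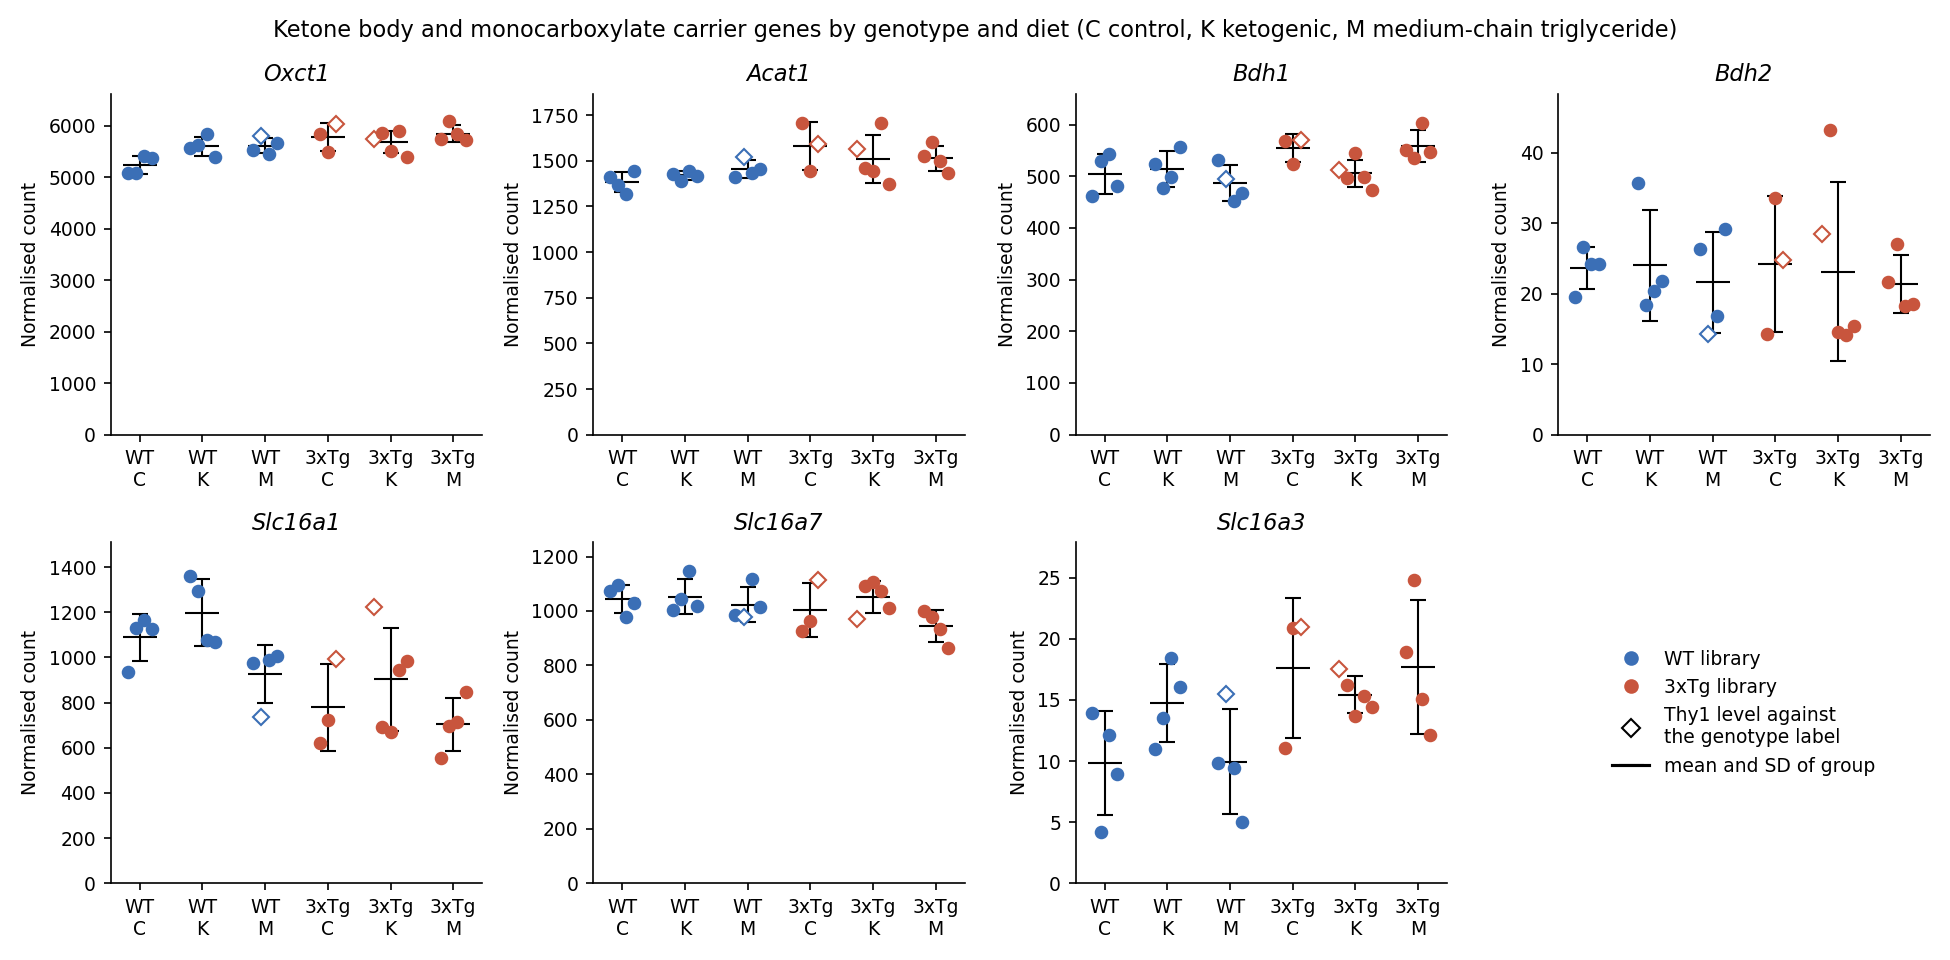
Normalised count (vertical axes, from 0) of each of the 7 genes in the 24 libraries, by genotype and diet. Points are libraries, open diamonds are the 3 libraries whose Thy1 goes against the label, and bars are group mean and SD. Slc16a1 is lower in most 3xTg libraries, from 556, than in WT libraries, up to 1359, and in that panel the open diamonds sit among the libraries of the other genotype.

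Slc16a1 was the member with a lower level in 3xTg that passed the test. On the control diet it stood at 936, 1132, 1166 and 1124 normalised counts in the WT libraries, and at 621, 725 and 993 in the 3xTg libraries, the last being the library labelled 3xTg_C_3. On the ketogenic diet the WT libraries had 1359, 1292, 1077 and 1066. The 3xTg libraries on that diet had 691, 672, 943 and 984, and the library labelled 3xTg_K_1 had 1225. On the MCT diet the WT libraries had 975, 990 and 1005, with 735 in the library labelled WT_M_2, and the 3xTg libraries had 556, 695, 714 and 847. Across diets 11 of the 12 3xTg libraries lay below the WT mean and 7 lay below every WT library. With the 3 libraries left out, the WT libraries ran from 936 to 1359 (median 1077) and the 3xTg libraries from 556 to 984 (median 704). The groups then overlapped only between 936 and 984: 8 of 10 3xTg libraries lay below every WT library, and 9 of 11 WT libraries above every 3xTg library.

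The genotype comparison averaged over the diets asks how 3xTg differs from WT whatever the mice ate. Slc16a1 fell by 0.45 ± 0.10 (SE) on the log2(normalised count + 1) scale, to 0.733 of the WT level (limma, adjusted p = 0.00526, n = 12 against 12). The 95% interval of the log2 difference ran from -0.64 to -0.25. Without the 3 libraries the difference was -0.59 ± 0.08, or 0.666 of the WT level (limma, adjusted p = 1.89e-05, n = 10 against 11). The call held in all 38 alternative fits, with adjusted p-values between 5.14e-11 and 0.0229 (limma, edgeR or DESeq2).

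**Figure D2:**
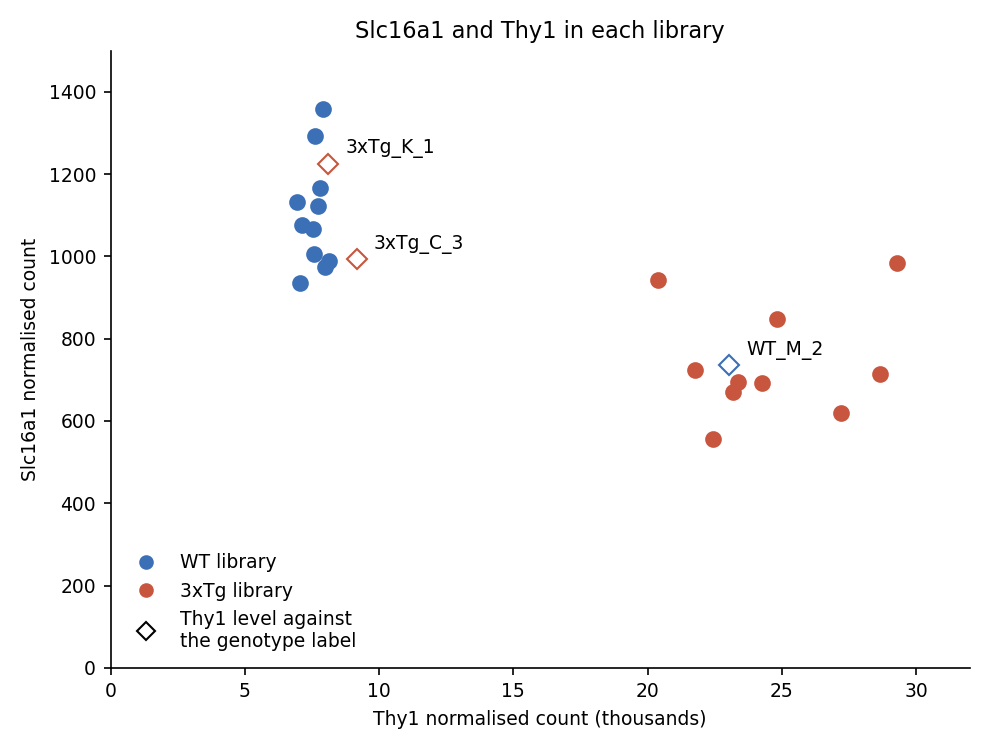
Slc16a1 against Thy1, both as normalised counts, with 1 point per library and open diamonds for the 3 libraries whose Thy1 goes against the label. Libraries with Thy1 at or above 20385 have Slc16a1 at or below 984, and those with Thy1 at or below 9189 have Slc16a1 at or above 936.

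Within single diets Slc16a1 pointed the same way. On the control diet the WT libraries averaged 1089 ± 104 (SD, n = 4) and the 3xTg libraries 780 ± 192 (n = 3), and the log2 difference was -0.51 ± 0.18 (SE; limma, adjusted p = 0.209). On the ketogenic diet they averaged 1199 ± 149 (n = 4) and 903 ± 229 (n = 5), a difference of -0.44 ± 0.16 (limma, adjusted p = 0.184). On the MCT diet they averaged 926 ± 128 and 703 ± 119 (n = 4 each), a difference of -0.40 ± 0.16 (limma, adjusted p = 0.605). None of these passed with all 24 libraries. With the 21 libraries the differences were -0.69 ± 0.15 (control, limma, adjusted p = 0.0160), -0.56 ± 0.12 (ketogenic, adjusted p = 0.0115) and -0.51 ± 0.13 (MCT, adjusted p = 0.0527), so that the first 2 passed. Which diets passed depended on the fit. Without the shallow library 3xTg_K_2 as well, the ketogenic difference was -0.48 ± 0.13 and did not pass (limma, adjusted p = 0.0571), while the MCT difference, still -0.51 ± 0.13, did (adjusted p = 0.0433). The MCT difference also passed with edgeR and DESeq2 on the 21 libraries (adjusted p = 0.0384 and 0.0102). The control comparison then rested on 2 3xTg libraries. Among fits that left out 1 library, the ketogenic difference passed only without the library labelled 3xTg_K_1 (limma, adjusted p = 0.0452).

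The sequence before the start of Slc16a1 is shown because its level carried the genotype difference, beside that of Bdh2, the other member on chromosome 3. Each is the 250 bases upstream of the RefSeq start (GRCm38.p6, plus strand, 5′ to 3′), at chr3:104638414-104638663 for Slc16a1 and chr3:135280971-135281220 for Bdh2, in lower case with the E-box CACGTG and the GC box GGGCGG in capitals.
Slc16a1: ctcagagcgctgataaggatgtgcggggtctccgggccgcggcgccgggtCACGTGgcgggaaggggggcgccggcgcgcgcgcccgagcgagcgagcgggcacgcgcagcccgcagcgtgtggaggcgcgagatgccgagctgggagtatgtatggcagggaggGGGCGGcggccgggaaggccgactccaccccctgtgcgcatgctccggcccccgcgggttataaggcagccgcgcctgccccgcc
Bdh2: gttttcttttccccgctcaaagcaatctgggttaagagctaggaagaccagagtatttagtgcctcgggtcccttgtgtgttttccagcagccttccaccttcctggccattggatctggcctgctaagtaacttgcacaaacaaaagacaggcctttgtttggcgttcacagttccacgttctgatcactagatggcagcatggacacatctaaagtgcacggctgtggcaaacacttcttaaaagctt
The Slc16a1 window is 76.4% G and C with 37 CpG dinucleotides, against 48% and 5 in the Bdh2 window and medians of 52.4% and 6 over 32851 RefSeq windows of this length. The window of Slc16a3, the member at the lowest level, is 73.6% G and C with 29 CpG dinucleotides, and that of Oxct1, at the highest, is 52% with 6. The 2 windows of Bdh1 have 49.6% with 7 and 60.8% with 9, so in these windows base composition did not follow the order of levels. The Slc16a1 window holds 1 E-box, 200 bases before the start, and 1 GC box, 85 bases before it. Searched on both strands, the E-box is in 6.02% of all windows and the GC box in 32.7%. The Slc16a3 window also holds a GC box, 48 bases before the start, and none of the other member windows holds an E-box. The CCAAT box (CCAAT, in 33.8% of windows) is in the Bdh2 window, 141 bases before the start on the minus strand, and not in the Slc16a1 window. The letters ACGTG, which lie within the E-box, are in 16.6% of windows, in the Bdh2 window on the minus strand 74 bases before the start, and in the Slc16a3 and Oxct1 windows. No member window holds TATAAA (12.4% of windows). Windows were found for 5 of the 7 members, and these matches describe letters, not bound sites.

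Of the ketone-use enzymes, Acat1 was slightly higher in 3xTg. In WT it ran from 1320 to 1521 normalised counts (median 1422, n = 12), and in 3xTg from 1375 to 1706 (median 1511, n = 12). The groups overlapped, with 11 of 12 3xTg libraries above the WT mean and 6 above every WT library. The highest were 1705 in 3xTg_C_1 and 1706 in 3xTg_K_4. The log2 difference was 0.11 ± 0.03 (SE), a rise of 7.89% (95% interval 2.77% to 13.3%; limma, adjusted p = 0.0459). The size was the same with 21 libraries, 0.11 ± 0.04, but the adjusted p was 0.0619 (limma). Of 24 fits that each left out 1 library, the call was kept in 7 (without WT_C_4, WT_K_3, the library labelled WT_M_2, 3xTg_C_2, 3xTg_K_3, 3xTg_K_5 or 3xTg_M_4) and lost without any other, with an adjusted p of up to 0.140 without 3xTg_C_1 (limma). It was also lost without WT_C_1 and WT_K_1 together (limma, adjusted p = 0.0684).

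Oxct1 and Bdh1 did not pass. Oxct1 ran from 5088 to 5847 in WT (median 5499) and from 5406 to 6088 in 3xTg (median 5794), with 4 of 12 3xTg libraries above every WT library. Its log2 difference was 0.07 ± 0.02 (SE; limma, adjusted p = 0.0621, 95% interval 1.61% to 8.94%), and 0.07 ± 0.03 in 21 libraries (adjusted p = 0.109). It passed with DESeq2 (adjusted p = 0.0276), with library weights (limma, adjusted p = 0.0479) and without WT_K_3, the library labelled WT_M_2, 3xTg_C_2 or 3xTg_K_5 (limma, adjusted p from 0.0357 to 0.0466). Bdh1 ran from 451 to 557 in WT (median 497) and from 474 to 604 in 3xTg (median 540), a difference of 0.10 ± 0.04 (limma, adjusted p = 0.0982), and 0.10 ± 0.05 in 21 libraries (adjusted p = 0.158). On the MCT diet Bdh1 stood at 535, 546, 550 and 604 in the 4 3xTg libraries. The 4 WT libraries had 451, 468, 532 and 494, the last labelled WT_M_2. That difference was 0.20 ± 0.07 with an adjusted p of 0.456 (limma), and it was called in 0 of 38 alternative fits. Bdh2 averaged 23.1 ± 5.88 in WT and 22.8 ± 9.03 in 3xTg (SD, n = 12 each), with a log2 difference of -0.05 ± 0.19 (limma, adjusted p = 0.900). In 21 libraries it was -0.16 ± 0.20 (adjusted p = 0.663), with 4 of 10 3xTg libraries below every WT library, against 2 of 12 in 24. With 8 to 48 reads per library, its 95% interval in 24 libraries, as a percent change, ran from -26.3% to 26.1%.

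The other carriers gave no called difference. Slc16a7 was at 1040 ± 56.3 in WT and 1003 ± 79.2 in 3xTg (SD, n = 12 each), a log2 difference of -0.06 ± 0.04 (limma, adjusted p = 0.343), with an interval from -9.17% to 1.23%, and -0.08 ± 0.04 in 21 libraries (adjusted p = 0.144). Slc16a3 ran from 4.20 to 18.4 normalised counts in WT (median 11.6) and from 11.0 to 24.8 in 3xTg (median 15.7), resting on 3 to 44 reads per library. The groups overlapped, though 6 of 12 WT libraries lay below every 3xTg library. Its log2 difference was 0.58 ± 0.19 (limma, adjusted p = 0.0651), and 0.59 ± 0.21 in 21 libraries (adjusted p = 0.0685). It passed only without WT_C_1 (adjusted p = 0.0460), the library labelled WT_M_2 (0.0313) or 3xTg_M_4 (0.0487) among the limma fits run.

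**Figure D3:**
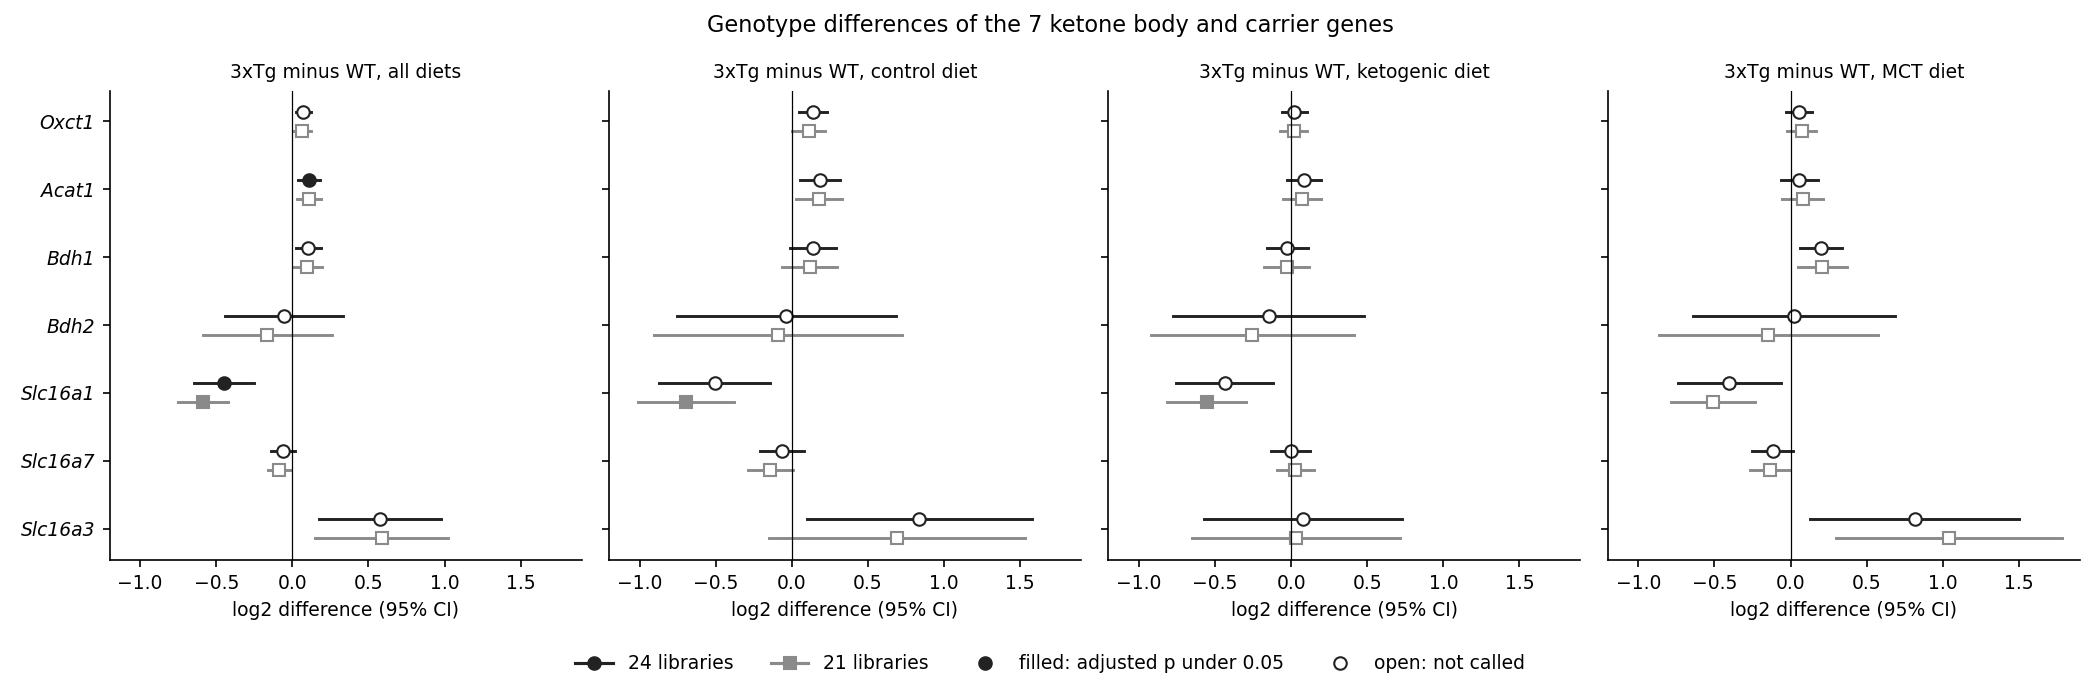
Log2 difference, 3xTg minus WT, of each of the 7 genes (points) with its 95% confidence interval (lines), over all diets and within each diet. Circles use 24 libraries and squares 21; filled symbols have an adjusted p under 0.05. Slc16a1 lies below 0 in every panel, at -0.45 over all diets, and Bdh2 and Slc16a3 have the widest intervals.

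In all, 2 of the 7 members were called between genotypes averaged over diets, Slc16a1 lower and Acat1 higher, against 8.10% of the 14162 genes tested. With 21 libraries it was Slc16a1 alone, 1 of 7, against 13.2% of 14126 genes. On the control diet 0 of 7 were called in 24 libraries (background 0.0565%) and 1 of 7 in 21 libraries (1.74%). On the ketogenic diet the counts were 0 of 7 (0.155%) and 1 of 7 (3.62%), and on the MCT diet 0 of 7 (0%) and 0 of 7 (1.77%). In limma on 24 libraries, 4, 1 and 3 members had an unadjusted p under 0.05 on the control, ketogenic and MCT diets. The share of all genes under that unadjusted cut is not given here, so these counts are not read as a result about the members. On 24 libraries edgeR and DESeq2 called no member within a single diet. The median log2 difference over the 7 members was 0.07, beside 0.00 over all genes tested.

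Neither test diet moved a member past the test. The diet comparisons ask whether long feeding of a ketogenic or a medium-chain fat diet changed the genes that carry and burn ketone bodies. Over 7 diet comparisons (each diet minus control in WT, in 3xTg and averaged, and ketogenic minus MCT) none of the 7 members was called, in 24 or 21 libraries, and the lowest adjusted p was 0.735 and 0.747 (limma). An unadjusted p under 0.05 was found in 4 of 49 values, a description with no share of all genes beside it. With edgeR and DESeq2 no member was called either. Among all genes, 0% were called in 5 of these comparisons with 24 libraries, and 0.00706% in MCT minus control in WT and in ketogenic minus MCT. With 21 libraries the shares were 0.0212% in MCT minus control in WT, and 0.0142% in MCT minus control averaged and in ketogenic minus MCT.

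By group mean Oxct1 was lowest in WT on the control diet, though none of its diet differences passed the test. Those libraries had 5090, 5088, 5419 and 5379 normalised counts. The WT libraries on the ketogenic diet had 5562, 5621, 5847 and 5393, and those on the MCT diet 5534, 5463 and 5676, with 5805 in the library labelled WT_M_2. The MCT libraries all lay above the control libraries, and 3 of 4 ketogenic ones did. The share of all genes that separate in this way is not given here, so this order is not read as a result about Oxct1. The log2 differences were 0.10 ± 0.04 for each diet (SE; limma, adjusted p = 0.983 and 0.989, n = 4 each). In 3xTg the ketogenic difference of Oxct1 was -0.03 ± 0.04 and the MCT difference 0.02 ± 0.05. Averaged over genotypes, its interval for ketogenic minus control ran from -1.82% to 6.97%.

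For Slc16a1 the 2 test diets lay on either side of the control diet with all 24 libraries. Averaged over genotypes, ketogenic minus control was 0.17 ± 0.12 (95% interval -4.96% to 33.0%; limma, adjusted p = 0.946). MCT minus control was -0.19 ± 0.12 (95% interval -26.1% to 4.24%; limma, unadjusted p = 0.131). Ketogenic minus MCT was 0.36 ± 0.11 with an unadjusted p of 0.00407 (limma, adjusted p = 0.981). With 21 libraries MCT minus control shrank to -0.04 ± 0.10 and ketogenic minus MCT to 0.24 ± 0.09 (limma, adjusted p = 0.996). Slc16a7 had a ketogenic minus MCT difference of 0.10 ± 0.04 (limma, adjusted p = 0.981).

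For the other members the averaged diet differences had these intervals. For ketogenic minus control, Acat1 lay between -6.82% and 5.02%, Bdh1 between -10.1% and 3.30%, and Slc16a7 between -3.77% and 9.98%. For MCT minus control the intervals were -5.62% to 6.68% for Acat1, -8.17% to 5.81% for Bdh1 and -10.2% to 2.97% for Slc16a7. The scarce members were measured loosely: ketogenic minus control ran from -31.6% to 32.5% for Bdh2 and from -15.7% to 66.9% for Slc16a3. The largest diet difference of any member was Slc16a3 in WT on the ketogenic diet, at 0.63 ± 0.33 (SE; limma, adjusted p = 0.983), from 9.81 ± 4.26 to 14.8 ± 3.22 normalised counts (SD, n = 4 each).

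**Figure D4:**
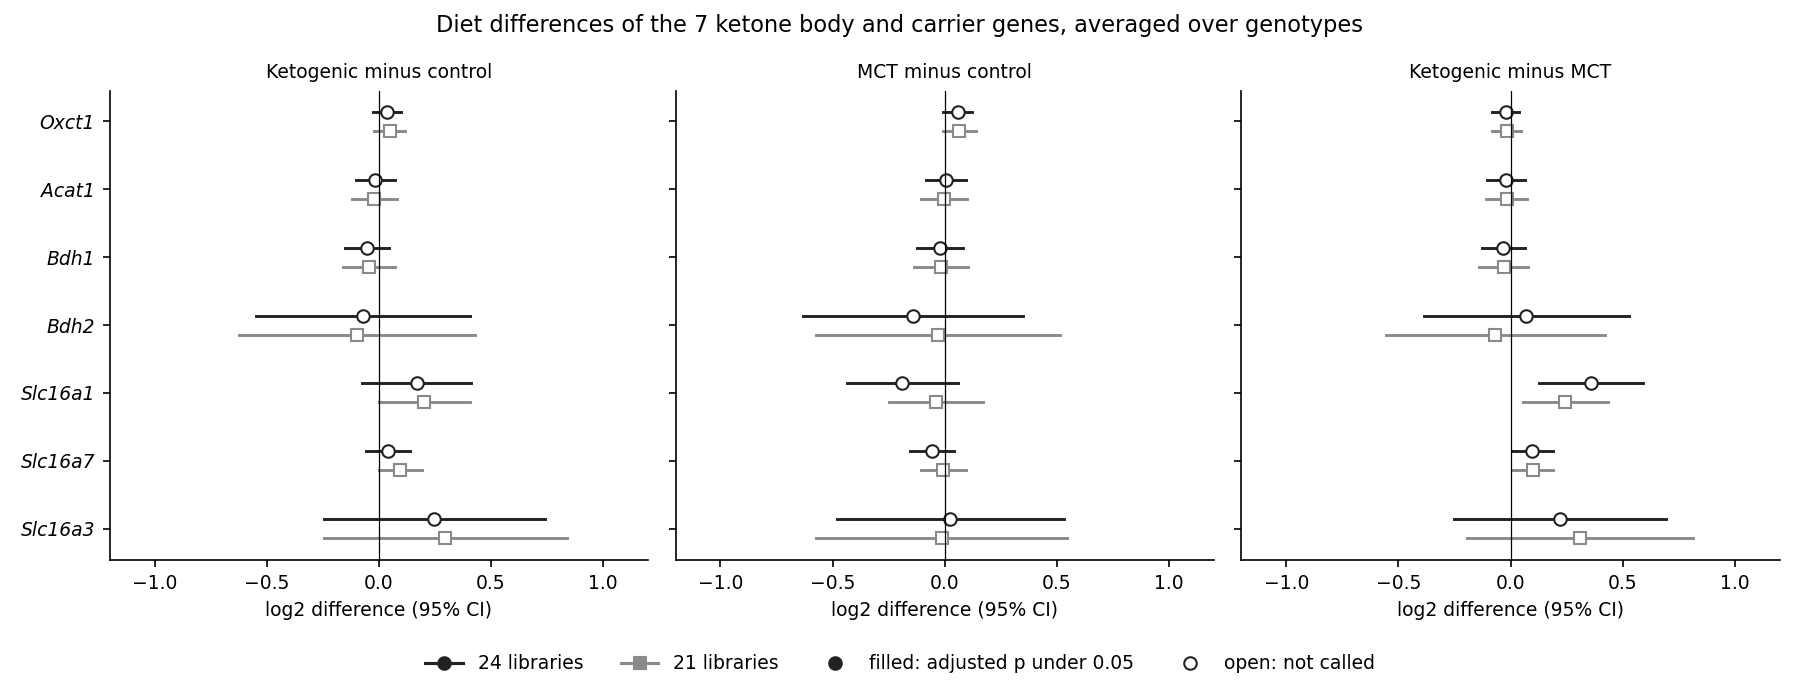
Log2 diet differences of the 7 genes averaged over genotypes, with 95% confidence intervals: ketogenic minus control, MCT minus control and ketogenic minus MCT. Circles use 24 libraries and squares 21, and no symbol is filled because none was called. Slc16a1 sits at 0.17, -0.19 and 0.36 in the 24 libraries.

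The interaction of each diet with genotype asks whether a diet acted differently in 3xTg and WT. No member passed, and the lowest adjusted p was 0.742 with 24 libraries and 0.772 with 21 (limma, 0 of 7 members at each interaction, none with an unadjusted p under 0.05 in 24 libraries, and none by edgeR or DESeq2). Among all genes 0% were called in 24 libraries, and 0.0142% for the MCT interaction in 21. Oxct1 had the smallest p, with a ketogenic interaction of -0.12 ± 0.06 (SE; limma, adjusted p = 0.742), with a 95% interval of -15.6% to 0.133% for the ratio of folds. For Slc16a1 the interactions were 0.07 ± 0.24 (ketogenic) and 0.10 ± 0.24 (MCT), with intervals of -25.1% to 46.7% and -23.8% to 51.5%.

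A wider list of 35 genes of ketone synthesis and use, other carriers, carrier partners, lactate and pyruvate handling, receptors and regulators was chosen by function, and 23 of them passed the filter. Between genotypes averaged over diets, 0 were called in 24 libraries by limma, edgeR or DESeq2, beside the same 8.10% of all genes by limma, and 3 had an unadjusted p under 0.05 in limma. Of the 23, 16 had a difference above 0 and 7 below, with a median log2 difference of 0.04. In 21 libraries 1 of the 23 was called by limma, beside 13.2% of all genes. In the other 12 comparisons none of the 23 was called by these tools in 24 libraries, and 0 or 1 in limma had an unadjusted p under 0.05 in each. The counts by unadjusted p are a description, with no share of all genes beside them.

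The gene of the list with the smallest p between genotypes was Acat2, a cytosolic thiolase that joins acetyl-CoA units. It ran from 282 to 380 normalised counts in WT (median 316) and from 306 to 389 in 3xTg (median 344). The ranges overlapped, and 11 of 12 3xTg libraries lay above the WT mean. The log2 difference was 0.12 ± 0.05 (SE; limma, adjusted p = 0.106), and 0.13 ± 0.05 in 21 libraries (adjusted p = 0.124). Slc16a14, a carrier of the same family whose cargo is little known, ran from 107 to 161 in WT and from 125 to 172 in 3xTg, with a log2 difference of 0.13 ± 0.06 (limma, adjusted p = 0.239), and 0.16 ± 0.07 in 21 libraries (adjusted p = 0.129). Neither difference passed the test.

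Hcar1, the lactate receptor gene, was the wider-list gene that passed in 21 libraries and not in 24. In the 21 libraries it ran from 4.21 to 62.1 normalised counts in WT (median 21.5) and from 34.6 to 75.6 in 3xTg. The lowest WT value, in WT_M_3, rested on 4 reads, and the highest 3xTg value, in the shallow 3xTg_K_2, on 14 reads. All 10 3xTg libraries lay above the WT mean, though the ranges overlapped. The log2 difference was 1.30 ± 0.35 in 21 libraries (limma, adjusted p = 0.0162) and 0.82 ± 0.40 in 24 (adjusted p = 0.203). On the 21 libraries edgeR gave 0.95 (adjusted p = 0.0471) and DESeq2 0.98 without a call (adjusted p = 0.0818). Without the shallow library 3xTg_K_2 as well, the difference was 1.24 (limma, adjusted p = 0.0288). Hcar1 was called in 3 of 37 alternative fits, and in 0 of the 24 that each left out 1 library. In the libraries labelled 3xTg_C_3, 3xTg_K_1 and WT_M_2 it stood at 18.1, 7.66 and 62.9.

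The partners that bring monocarboxylate transporters to the membrane did not pass between genotypes: Bsg had a log2 difference of -0.02 ± 0.04, Emb 0.14 ± 0.06 and Nptn 0.02 ± 0.03 (SE; limma, adjusted p = 0.776, 0.153 and 0.693). Ldha and Ldhb, the lactate dehydrogenase subunits, were at -0.03 ± 0.04 and 0.06 ± 0.03, and Mpc1 and Mpc2 of the mitochondrial pyruvate carrier at 0.04 ± 0.05 and -0.03 ± 0.04. The regulators gave 0.20 ± 0.15 for Ppara, the fatty acid sensing receptor, 0.07 ± 0.04 for its coactivator Ppargc1a and 0.05 ± 0.04 for the mitochondrial deacetylase Sirt3. None of these passed in 21 libraries either, where Ppara was at 0.37 ± 0.14 (limma, adjusted p = 0.0821), Bsg at -0.05 ± 0.04, Emb at 0.11 ± 0.07 and Nptn at 0.01 ± 0.03. Oxct2a, a testis form of Oxct1, and Foxa2 were at 0 in all 24 libraries. Hcar2, the β-hydroxybutyrate and niacin receptor gene, ran from 0 to 5.40 normalised counts, under the filter. Klb ran from 2.30 to 8.70, Slc16a8 from 0 to 10.2, Oxct2b from 0 to 5.40, Slc5a8 from 0 to 4.51 and Slc16a5 from 0 to 2.26. Ffar2, Ffar3, Fgf21 and Slc5a12 had at most 1.95, 1.37, 1.59 and 1.37.

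Because Slc16a1 and Slc16a7 differ in the cells that use them, marker lists were read beside the genotype result, in which 8.10% of all genes were called in 24 libraries and 13.2% in 21. Of 10 endothelial markers, 1 was higher (Slc2a1, the glucose carrier, 0.30 ± 0.09) and 3 lower in 3xTg (Cldn5, a tight junction gene, -0.43 ± 0.12, Flt1 -0.22 ± 0.04 and Cdh5 -0.30 ± 0.10). Of these 10, 2 had a difference above 0, and the median log2 difference was -0.08 in 24 libraries and -0.14 in 21. The summed level of the endothelial markers, to which Slc2a1 gave the most, was 4717 to 5205 in WT and 4609 to 5503 in 3xTg. Of 10 oligodendrocyte markers 3 were higher and 0 lower, with sums of 55419 to 91163 and 68151 to 91506. Of 10 astrocyte markers 2 were higher and 1 lower, with sums of 89971 to 109166 and 96608 to 107046. Of 10 subfield markers 0 were higher and 5 lower, C1ql2 by the most (-1.10 ± 0.15), with sums of 13205 to 16407 and 12131 to 14932. Microglial markers had 3 higher and 0 lower of 10, neuronal markers 1 higher and 1 lower, striatal markers 0 and 1, and choroid plexus and meningeal markers none called (limma). In 21 libraries oligodendrocyte markers had 2 higher and 1 lower, astrocyte markers 3 and 1 and microglial markers 4 and 0, and the counts of the other lists were the same. No marker was at 0 in all libraries, and the part of these shifts in the Slc16a1 result was not tested. The choroid plexus sum was 13639 in WT_C_1 and 5303 in WT_K_1, and between 575 and 1001 in all others. The Slc16a1 difference was -0.47 ± 0.10 without WT_C_1, -0.43 ± 0.10 without WT_K_1 and -0.45 ± 0.10 without both, a fit added after the data were seen (limma, adjusted p = 0.00610, 0.0103 and 0.0104).

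Neighbouring genes were read within 500 kb of each member, a window chosen after values were seen. Of 7 tested neighbours of Slc16a1, 1 was called in 24 libraries, Capza1, an actin capping subunit gene on chromosome 3 at 104822779 to 104864505. It rose in 3xTg by 1.23 ± 0.20 on the log2 scale (SE; limma, adjusted p = 0.000752), and by 1.55 ± 0.14 in 21 libraries (adjusted p = 4.12e-08). In 21 libraries Lrig2 was called too, 2 of 7, at -0.13 ± 0.04 (limma, adjusted p = 0.0241). Around Acat1 0 of 9 neighbours were called in 24 libraries, around Bdh1 1 of 9, Bdh2 2 of 7, Oxct1 1 of 4 and Slc16a3 3 of 38, beside 8.10% of all genes. In 21 libraries the count became 3 of 8 around Bdh1 and 4 of 38 around Slc16a3, beside 13.2% of all genes, and was the same around Acat1, Bdh2 and Oxct1. With so few genes in a window these shares are coarse, and no gene that passed the filter lay that near to Slc16a7.

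The genes whose levels followed each member most closely were named by Spearman rho over the 24 libraries among 12158 genes, as a description, since the libraries share the strain difference and the sequencing depth. For Slc16a1 they were Fancc (rho 0.904), Sox2 (0.875) and Pcdhga2 (0.863). Oxct1 went with Copb2 (0.898), Ankmy2 (0.874) and Cops2 (0.872), and Acat1 with Atp6v1d (0.903), Vps41 (0.885) and Apmap (0.880). For Slc16a7 they were Noc3l (0.817), Otud4 (0.798) and Trmt13 (0.749). Bdh1 had weaker neighbours, Zc3hc1 (0.657), Ak1 (0.643) and Sgtb (0.633). Bdh2 went with Abtb2 (0.726), Gstt1 (0.704) and Plcxd1 (0.685), and Slc16a3 with Ntm (0.769), Lgalsl (0.757) and Zmat4 (0.748). Over the 21 libraries the rho of all these genes with their member lay between 0.634 and 0.899. Of the 3 genes nearest to Slc16a1, Fancc (-0.69 ± 0.15) and Sox2 (-0.41 ± 0.06) were called lower in 3xTg (SE; limma, adjusted p = 0.00618 and 0.000498), beside 8.10% of all genes called. Because they were picked for following Slc16a1, itself called lower in the same libraries, these calls are not separate support.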

How the data were processed

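Hippocampal poly(A) RNA from 24 mice was measured in 6 groups of genotype and diet. Per the labels' protocols, all samples had an RNA integrity number above 8 and libraries were made with the KAPA mRNA kit. Reads were processed with Trimmomatic and STAR on GRCm38, per the submitters' processing notes, while no source used here gives the gene counter, annotation or strand setting. A table of 21793 genes was deposited, whose values are a signal, namely read counts normalised by the authors. Within each library all values were multiples of 1 step, to within 0.01 reads, which gave back whole reads, 2.65 to 25.8 M per library. Depth limits the scarce genes, and errors are spreads between mice.

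Genes with at least 10 normalised counts in 3 libraries were kept. Values log2(normalised count + 1) were modelled in limma 3.58.1 (R 4.3.3) with 1 mean per group, a mean-dependent prior variance and 1 spread shared by the groups. P-values were two-sided and adjusted over all kept genes (Benjamini-Hochberg), and an adjusted p under 0.05 was a call. A fold change on this scale understates the change of low genes. The fit was run on simulated counts in which some genes changed alike in all 3xTg libraries. The simulation held no diet effect and no library against its label. It therefore does not cover the diet, within-diet or interaction comparisons. The members, lists, the left-out libraries and the tests were chosen with earlier results of these data known. The text names all members, each wider-list gene called in a comparison or otherwise up to 4 with the smallest p, and the 3 genes with the highest rho per member.

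Alternatives were TMM factors, pseudocounts of 0.5 and 5, a filter at a mean of 50 or none, edgeR 4.0.16 and DESeq2 1.42.0 on the recovered reads, library weights, a replicate block, each library left out, and 21 libraries. Fits of 20 libraries, of 22 without WT_C_1 and WT_K_1, and edgeR and DESeq2 on the 21, were added after the data were seen. Gene positions are from GENCODE M21 and upstream sequences from RefSeq, both on GRCm38. Some gene names had been altered to dates, none of them a gene named here. Some listed genes and details of the mouse line are not reported here.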

Additional observations from a re-analysis of the deposited data

Results flagged for a closer look

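Slc16a1 in the library labelled WT_M_2 stood at 735 normalised counts, where the other 3 WT libraries on the MCT diet lay between 975 and 1005. The gap to the nearest of them was 0.89 of the whole range of the group. It was the only such library among 35 combinations of a member and a group of 4 or 5 libraries, and about 1 in 20 would stand out so by chance. Thy1 in that library was 23048 normalised counts.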

How the results depend on the processing

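Across the alternatives run, no called member changed direction. For genotypes averaged over diets the 2 members called became 1 with no filter, with 21 or 20 libraries, with edgeR on 21 libraries and without WT_C_1 and WT_K_1 together, and 1 to 4 when each library was left out. The 4, without the library labelled WT_M_2, were Slc16a1, Acat1, Oxct1 and Slc16a3. On the control diet the 0 members called became 1 (Slc16a1) with 21 or 20 libraries and with edgeR or DESeq2 on 21, and on the ketogenic diet 1 with 21 libraries and with edgeR or DESeq2 on 21, with 0 to 1 over left-out libraries (1 without the library labelled 3xTg_K_1), and back to 0 with 20 libraries. On the MCT diet it became 1 with 20 libraries and with edgeR or DESeq2 on 21. The cause was not tested. Slc16a1 averaged over diets lay between -0.59 and -0.40 and was called in all 38 alternatives.

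The number of all genes called was 1147 for genotypes averaged over diets, 576 without 3xTg_C_1 and 1511 without the library labelled WT_M_2. It was 8 on the control diet (0 without WT_C_1 and WT_K_1, DESeq2 174, left-out libraries 0 to 104), 22 on the ketogenic diet (2 without WT_C_1 and WT_K_1, edgeR 5, DESeq2 141, left-out libraries 0 to 325) and 0 on the MCT diet (DESeq2 22, left-out libraries 0 to 97). Replicate numbers gave no clear sign of pairing. Over 55 pairs of libraries that share a number, deviations from group means correlated at -0.34 to 0.33 (median 0.03). For 5 libraries the best match had their own number. This check cannot exclude a shared origin of some libraries, on which the labels are silent. With a replicate block 2 members were called averaged over diets, Slc16a1 at -0.45 (limma, adjusted p = 0.0101) and Acat1 at 0.12 (adjusted p = 0.0279). Replicate 5 occurs in 3xTg_K alone, so the block fit takes nothing from that library. Depth limits Bdh2 and Slc16a3, with 8 to 48 and 3 to 44 reads per library.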
